A study of Homo sapiens with 18 samples.

Results

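Tight junctions seal the space between neighbouring epithelial cells. Claudins are the membrane proteins that form their strands, some of them tightening the barrier and others leaving pores for particular ions. Occludin and tricellulin share the strands, and scaffold proteins of the ZO family tie them to actin. Claudin levels are commonly altered in epithelial ovarian cancer, in which CLDN3 and CLDN4 are well known for their high expression. The 10 genes described here are 7 claudins (CLDN1, CLDN3, CLDN4, CLDN6, CLDN7, CLDN14 and CLDN16), the occludin gene OCLN, the tricellulin gene MARVELD2 and TJP1, which encodes ZO-1. They were found by symbol among 55765 genes in the read counts of OVCAR3, an established cell line of human high-grade serous ovarian carcinoma. The 10 genes were chosen from earlier results of the same libraries, in which the rise of CLDN14 was already known, so their differences are given as a description and are not independent evidence.

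RNA was sequenced from 18 samples in 2 experiments of 9 libraries, with 3 replicates in each of 6 groups. In the first, OVCAR3 cells received IgA or IgG of no particular specificity, or were left untreated. In the second, they received IgA against BDNF, a secreted neurotrophin, IgA against TSPAN7, a tetraspanin of the cell surface, or nothing. Antibodies were given at 0.5 µg/ml in medium with little serum. The labels give 24 h, whereas another description of the experiments gives 8 h. All groups are the same tumour line. The study describes the replicates of the first experiment as separate experiments. For those of the second the sources used here do not say so, and p-values there measure a spread between libraries that may be technical. Groups were compared within an experiment only. In bulk RNA, fewer cells expressing a gene and less RNA of it per cell cannot be told apart.

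Library totals ranged from 27920733 to 47381836 counts. IgA replicate 3 stood apart, with 19.1% of its counts from mitochondrial genes against 5.75% to 10.2% in the other 17 libraries. The 6 epithelial markers checked were all expressed, with summed levels of 2588 to 3752 CPM (counts per 1e+06 counts of the library). With IgA against IgG, KRT7 was higher by 0.43 and KRT8 lower by 0.37 on the log2 scale (adjusted p = 0.0054 and 0.030, edgeR), and the other 4 were not called. The 3 markers of serous carcinoma were also expressed, with sums of 1484 to 4387 CPM with IgA, 1770 to 2306 with IgG and 1669 to 3040 in untreated cells. Of these WT1 fell by 1.17 and PAX8 rose by 0.34 with IgA against IgG (adjusted p = 0.0035 and 0.044, edgeR), and MUC16, highest in IgA replicate 3, was not called. With TSPAN7 IgA against untreated cells KRT7 rose by 0.54, WT1 fell by 0.30 and MUC16 fell by 0.47. With BDNF IgA 2 of the epithelial markers were called higher, among them KRT7 (by 0.24, adjusted p = 0.0047, edgeR), and PAX8 rose by 0.16 (adjusted p = 0.014). The 6 haematopoietic markers together reached at most 2.27 CPM in any library, and 2 endothelial markers at most 1.96. The summed level of 4 fibroblast markers was 22.1 to 37.3 CPM with IgA, 18.2 to 19.6 with IgG and at most 24.5 in untreated cells. Most of that was COL1A1, and 3 of the 4 had under 10 counts in every library of the first experiment. COL1A1 was called higher with IgA than with IgG (0.64 ± 0.18 SE, adjusted p = 0.022, edgeR) but not against untreated cells. Of the endothelial markers 1 was called higher with IgA against untreated cells, and 1 haematopoietic marker was called higher with TSPAN7 IgA against untreated cells. The part of these markers in the results was not tested.

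Of the 5 claudins called with IgA, the promoters of CLDN1, which rose, and of CLDN3 and CLDN4, which fell, are shown first as examples of both directions, chosen after values were seen. They are RefSeq windows on GRCh38.p14 from 250 bases before to 50 bases after the start, written 5′ to 3′. CLDN1 lies at chr3:190322397-190322696 on the minus strand, CLDN3 at chr7:73770221-73770520 on the minus strand and CLDN4 at chr7:73830746-73831045 on the plus strand. Capitals mark a match to AP-1 (TGANTCA), the NF-kB consensus or the Snail E-box (CAGGTG), on either strand.
CLDN1: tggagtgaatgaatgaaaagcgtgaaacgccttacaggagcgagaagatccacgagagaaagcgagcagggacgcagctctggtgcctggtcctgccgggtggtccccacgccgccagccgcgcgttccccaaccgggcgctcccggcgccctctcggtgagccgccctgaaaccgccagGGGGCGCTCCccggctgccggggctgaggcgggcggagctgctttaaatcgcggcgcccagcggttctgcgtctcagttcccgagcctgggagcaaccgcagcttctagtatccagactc
CLDN3: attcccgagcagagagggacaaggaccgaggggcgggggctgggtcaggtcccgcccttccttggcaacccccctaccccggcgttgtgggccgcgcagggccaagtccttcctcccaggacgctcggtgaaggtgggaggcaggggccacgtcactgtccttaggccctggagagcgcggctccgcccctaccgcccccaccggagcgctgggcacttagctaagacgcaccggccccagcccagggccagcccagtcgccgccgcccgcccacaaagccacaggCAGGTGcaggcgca
CLDN4: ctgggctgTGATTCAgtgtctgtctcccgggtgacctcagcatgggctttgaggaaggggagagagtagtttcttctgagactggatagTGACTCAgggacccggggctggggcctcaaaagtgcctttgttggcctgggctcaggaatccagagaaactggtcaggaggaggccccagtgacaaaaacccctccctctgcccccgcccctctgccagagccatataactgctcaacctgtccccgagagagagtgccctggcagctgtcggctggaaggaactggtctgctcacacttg
The CLDN1 window held 1 match to the NF-kB consensus, CLDN3 held 1 Snail E-box and CLDN4 held 2 AP-1 matches. Over all 35116 RefSeq windows, 11.3% held the NF-kB consensus, 20.6% the E-box and 7.71% the AP-1 letters. All 10 genes were matched, with 18 windows in all. The E-box was in 9 of the 18, the NF-kB consensus in 2 (CLDN1 and CLDN6) and AP-1 in 2 (CLDN4 and CLDN16). The windows with the E-box belonged to 7 genes. These were CLDN14 and CLDN16, which rose with IgA, CLDN3, which fell, and CLDN6, CLDN7, OCLN and TJP1, which were not called. A looser form of the NF-kB motif, searched first, was in 4 of the 18 and in 25.6% of all windows, with 4 matches in CLDN1. The GC box (GGGCGG) was in 11 of the 18 and 45.0% of all. The TATA box (TATAAA, 11.5% of all) and 2 forms of a Grainyhead motif (AACCGGTT, 0.134%, and AACCNGNTT, 2.11%) were in none. None of the capitalised matches to different motifs overlapped. A match to these letters is a description and not evidence of binding.

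CLDN1 encodes a barrier-forming claudin and CLDN16 a claudin known for cation transport in the kidney. They lie head to head on chromosome 3 (GRCh37, GENCODE). CLDN1 spans 3:190023496-190040235 on the minus strand and CLDN16 3:190040330-190129927 on the plus strand, with 94 bases between them. RefSeq lists a further CLDN16 start such that the gene spans CLDN1 on the opposite strand. Strand was not stated for the counting, so reads of the pair may not be separable there. In untreated cells of the first experiment CLDN1 had 9169, 9525 and 11057 normalised counts (read counts after each library was brought to the same TMM-adjusted size). With IgG it had 10046, 8801 and 11037. With IgA it had 46351, 40899 and 38286. All 3 IgA libraries lay far above the other 6, and the IgG and untreated libraries overlapped. CLDN1 was 4.20-fold higher with IgA than with IgG (log2 fold change 2.07, SE 0.12, adjusted p = 3.8e-07, edgeR quasi-likelihood test), and 2.08 ± 0.12 (SE) on the log2 scale above untreated cells. Without IgA replicate 3 these differences were 2.13 and 2.14.

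CLDN16 moved in the same direction, by less. It had 15985, 15918 and 18611 normalised counts in untreated cells, 15171, 14983 and 19307 with IgG, and 28944, 29456 and 26813 with IgA. The IgA libraries again did not overlap the others. The log2 difference was 0.78 ± 0.12 (SE) against IgG (adjusted p = 0.00062, edgeR) and 0.75 ± 0.12 against untreated cells. The ratio of CLDN1 to CLDN16 counts was 1.39 to 1.60 in the IgA libraries and 0.572 to 0.662 in the other 6, so the neighbours did not rise in proportion.

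CLDN14, a claudin needed for hearing, was close to absent without IgA in the first experiment. No untreated library had a read, and the IgG libraries had 0, 3 and 0. The IgA libraries had 32, 27 and 64 reads, which are 35.9, 27.0 and 101 normalised counts. The highest value was that of IgA replicate 3. Over the group, 123 reads with IgA stood against 3 with IgG, a ratio of 50.01 after scaling (exact 95% interval 16.7 to 246, counting error only). Against untreated cells it was at least 20.4-fold higher, taking 3 counts per library as the floor. Both comparisons passed the test (adjusted p = 0.0032 and 0.0012, edgeR) and did so without IgA replicate 3 (0.0070 and 0.0021). CLDN14 entered the test only through the reads of the IgA libraries, and its rise was known beforehand. These calls describe the difference and are no independent support for it. In GENCODE, 132 exonic bases of CLDN14 (5.54%) are shared with the antisense gene CLDN14-AS1, whose reads may not be separable. A non-coding RNA gene on the same strand shares 36 exonic bases (1.51%) with CLDN14.

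CLDN3 and CLDN4, paralogous claudins of epithelial barriers, went the other way. CLDN3 lies at 7:73183327-73184600 and CLDN4 at 7:73213872-73247020 (GRCh37, GENCODE), 29271 bases apart on opposite strands. The RefSeq start of CLDN4, whose window is shown above, lies farther from CLDN3 than the start of this span. CLDN3 had 2247, 2049 and 2551 normalised counts in untreated cells, 1477, 2050.4 and 2612 with IgG, and 923, 767 and 482 with IgA. Every IgA library was below every other library, and IgA replicate 3 was the lowest. CLDN3 fell by 1.49 ± 0.23 (SE) on the log2 scale against IgG, a 2.81-fold difference (adjusted p = 0.00067, edgeR), and by 1.65 ± 0.23 against untreated cells. Without IgA replicate 3 it fell by 1.28 and 1.44.

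CLDN4 changed less. It had 1392, 1069 and 1229 normalised counts in untreated cells, 1072, 1294 and 1359 with IgG, and 922, 887 and 780.3 with IgA. The groups did not overlap, although the lowest IgG and untreated libraries were near the highest IgA one. CLDN4 fell by 0.52 ± 0.13 (SE) against IgG and by 0.51 ± 0.13 against untreated cells (adjusted p = 0.013 and 0.014, edgeR). The first call was lost without IgG replicate 2 (adjusted p = 0.055) or IgG replicate 3 (0.058), and the second without untreated replicate 1 (0.077). The ratio of CLDN3 to CLDN4 counts was 0.617 to 1.00 with IgA and 1.38 to 2.08 in the other 6 libraries.

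**Figure D1:**
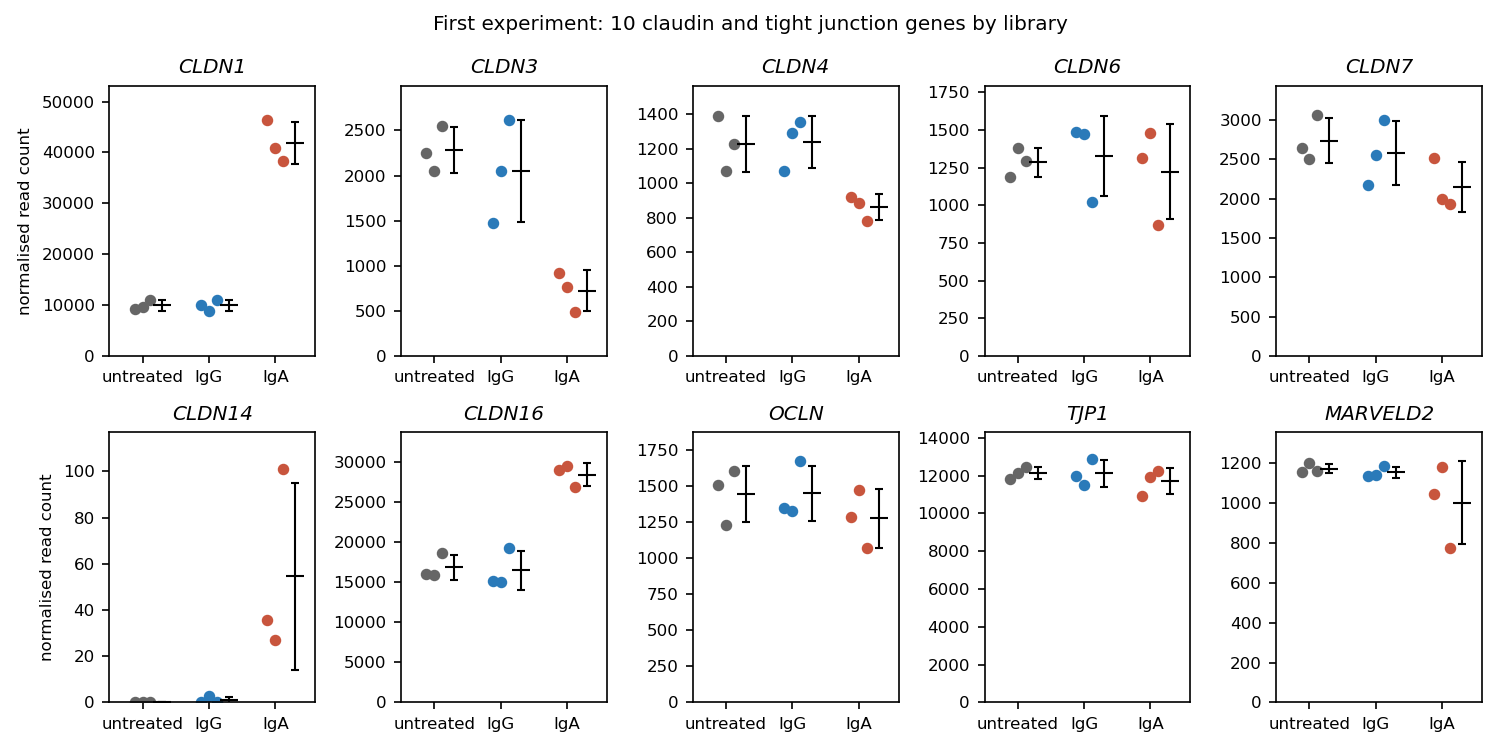
Normalised read count (linear axis from 0) of the 10 genes in each library of the first experiment, with mean and SD of the 3 libraries beside the points. CLDN1, CLDN14 and CLDN16 are higher and CLDN3 and CLDN4 lower in all 3 IgA libraries, whereas the other 5 genes overlap between groups.

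The other 5 genes did not pass the test with IgA. CLDN7, a claudin of the lateral membrane, had 2509 to 3060 normalised counts in untreated cells, 2178 to 2995 with IgG and 1929 to 2516 with IgA. Its log2 difference was -0.26 ± 0.14 (SE) against IgG and -0.35 ± 0.14 against untreated cells (adjusted p = 0.19 and 0.085, edgeR). CLDN7 shares 269 exonic bases (10.8%) with an overlapping gene on the same strand and 38 (1.5%) with ELP5 on the opposite strand. CLDN6, an oncofetal claudin, ranged from 870.4 to 1482 with IgA, from 1021 to 1486 with IgG and from 1186 to 1379 in untreated cells. Its lowest value was that of IgA replicate 3, and its log2 difference from IgG turned from -0.12 to 0.07 without that library. From untreated cells it turned from -0.07 to 0.12. CLDN6 shares 40 exonic bases (2.3%) with TNFRSF12A on the opposite strand, whose reads may not be separable.

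TJP1 varied little between libraries, and OCLN and MARVELD2 varied more. OCLN had 1071 to 1476 normalised counts with IgA and 1231 to 1673 in the other 6 libraries, a log2 difference of -0.18 ± 0.15 (SE) from IgG and -0.18 ± 0.15 from untreated cells. MARVELD2 had 1046, 1182 and 776 with IgA, the last in IgA replicate 3, and 1137 to 1198 elsewhere, with differences of -0.20 ± 0.14 and -0.22 ± 0.14. Without 1 library its difference from IgG ranged from -0.34 to -0.05. TJP1 had 10925 to 12249 with IgA and 11507 to 12889 elsewhere, a log2 difference of -0.05 ± 0.09 (SE) from IgG and -0.05 ± 0.09 from untreated cells. All 3 genes overlapped between groups. OCLN has a pseudogene copy, so its uniquely aligned reads may be undercounted.

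Of the 10 genes, 3 were called higher and 2 lower with IgA than with IgG, where 12.6% and 11.6% of 18012 genes tested were called higher and lower. The same numbers, 3 and 2, were called against untreated cells, with 12.9% and 12.1% of all genes. That even split of all genes depends on the scaling. By library size alone 873 genes were higher and 3631 lower against IgG, in place of 2265 and 2095, and 1001 and 3296 against untreated cells, in place of 2316 and 2187. The 2 comparisons share the IgA libraries. The median log2 difference of the 10 genes was -0.15 against IgG and -0.12 against untreated cells, and that of all genes was -0.01 in both. With IgG against untreated cells none of the 10 was called in either direction, as with all genes tested (0% higher and 0% lower), by edgeR and by DESeq2. At an unadjusted p under 0.05, 89 of all genes and none of the 10 passed by edgeR. With no difference at all, a share near 0.05 of the 18012 genes tested would be expected to pass. So few make this test a strict one, and its lack of calls does not show that IgG had no effect. The spread per gene was shared by all 9 libraries, IgA among them, and the cause was not tested. CLDN1 differed between IgG and untreated cells by 0.01 ± 0.12 (SE) and CLDN3 by -0.16 ± 0.22 on the log2 scale. CLDN7 differed by -0.09 ± 0.14, CLDN6 by 0.05 ± 0.18, CLDN16 by -0.03 ± 0.12, MARVELD2 by -0.02 ± 0.13 and CLDN4 by 0.01 ± 0.13. OCLN (0.00 ± 0.14) and TJP1 (-0.00 ± 0.09) were nearest to 0. All 10 overlapped between these groups.

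Scaled per kilobase of exon, the levels can be set against each other only roughly. Exon lengths were the union of all annotated exons, from a later annotation than the one the counts were made with. Which transcripts the cells made was not determined, and exons that went unused would make a gene read too low. For CLDN4 the union was 4699 bases in 5 exon blocks. The order of genes and the shares of claudins rest on these lengths. In untreated cells of the first experiment CLDN16 was highest (143 ± 13.1 CPM per kb, SD, n = 3), then CLDN1 (77.6 ± 7.84), CLDN3 (50.8 ± 5.64), CLDN7 (31.2 ± 3.27), TJP1 (30.4 ± 0.845) and CLDN6 (21.0 ± 1.58). CLDN4, MARVELD2 and OCLN followed between 3.65 and 7.43, and CLDN14 was at 0. Of the neighbours in that order, CLDN7 and TJP1 overlapped in range. With IgA, CLDN1 was highest (327 ± 32.2), above CLDN16 (242 ± 11.9), and CLDN3 was at 16.1 ± 4.98, with a range overlapping that of CLDN6. Summed over the 7 claudins, the level was 636 ± 52.7 CPM per kb with IgA, 322 ± 39.5 with IgG and 331 ± 29.3 in untreated cells.

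CLDN1 made up 49.9% to 52.9% of that sum in the IgA libraries and 22.7% to 26.5% in the other 6. CLDN3 made up 1.85% to 3.00% with IgA and 11.1% to 15.8% otherwise. In the second experiment CLDN1 supplied 24.1% to 25.9% with TSPAN7 IgA, 16.7% to 20.6% with BDNF IgA and 17.5% to 18.8% in untreated cells. CLDN3 supplied 9.65% to 10.6% with TSPAN7 IgA and 12.9% to 16.7% in the other 6 libraries. The share of CLDN16 stayed between 45.3% and 46.9% in all 9.

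**Figure D2:**
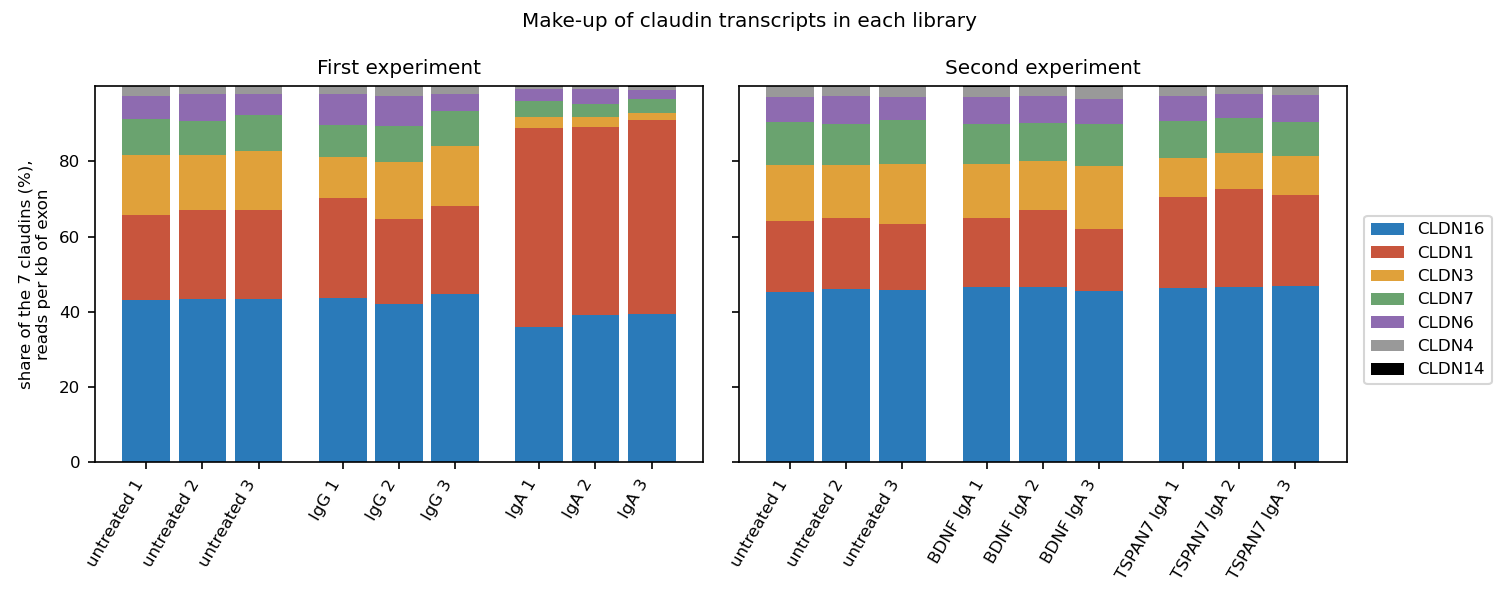
Share (%) of each of the 7 claudins in their summed reads per kilobase of exon, one bar per library. CLDN1 takes 49.9% to 52.9% of the bar in the IgA libraries, and CLDN3 narrows to 1.85% to 3.00%.

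In the second experiment CLDN1 had 5220, 5678 and 5191 normalised counts in untreated cells, 6925, 6305 and 5861 with BDNF IgA, and 8455, 8780 and 7824 with TSPAN7 IgA. The 3 groups did not overlap, and TSPAN7 IgA was highest. CLDN1 was 0.64 ± 0.06 (SE) above untreated cells on the log2 scale with TSPAN7 IgA (adjusted p = 1.3e-07, edgeR) and 0.25 ± 0.06 with BDNF IgA (adjusted p = 0.0097). The difference between the antibodies was itself 0.39 ± 0.06 (adjusted p = 0.00023, edgeR). The call with BDNF IgA was lost without BDNF IgA replicate 1, untreated replicate 1 or untreated replicate 3 (adjusted p = 0.086, 0.059 and 0.054).

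CLDN16 was higher with both antibodies. It had 11573, 12823 and 12483 normalised counts in untreated cells, 16127, 13104 and 14672 with BDNF IgA, and 14951, 14565 and 13955 with TSPAN7 IgA. Neither treated group overlapped the untreated one. The log2 differences were 0.25 ± 0.06 (SE) with BDNF IgA and 0.24 ± 0.06 with TSPAN7 IgA (adjusted p = 0.0097 and 0.013, edgeR), and the antibodies differed by -0.01 ± 0.06. The first call was lost without BDNF IgA replicate 1 or untreated replicate 1 (adjusted p = 0.089 and 0.076), and the second without TSPAN7 IgA replicate 1 or 2 or untreated replicate 1 (0.067, 0.061 and 0.091).

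CLDN3 was lower with TSPAN7 IgA. It had 1459.7, 1495 and 1657 normalised counts in untreated cells, 1912, 1387 and 2058 with BDNF IgA, and 1305, 1151 and 1166 with TSPAN7 IgA. The TSPAN7 IgA libraries lay below all others, and the BDNF IgA and untreated libraries overlapped. CLDN3 fell by 0.35 ± 0.10 (SE) on the log2 scale against untreated cells (adjusted p = 0.031, edgeR) and by 0.56 ± 0.10 against BDNF IgA (adjusted p = 0.0011). The first call was lost with DESeq2 (adjusted p = 0.11) and without TSPAN7 IgA replicate 2 or 3 or any 1 untreated library (adjusted p from 0.053 to 0.15), and the second held without any 1 library. With BDNF IgA the difference from untreated cells was 0.22 ± 0.10 (adjusted p = 0.19, edgeR).

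CLDN4 had 1021.1, 1020.6 and 1036 normalised counts in untreated cells, 1391, 1063 and 1450.3 with BDNF IgA, and 1123, 891 and 955 with TSPAN7 IgA. The BDNF IgA libraries were all above the untreated ones, and the 2 treated groups overlapped. The log2 difference was 0.34 ± 0.09 (SE) with BDNF IgA (adjusted p = 0.024, edgeR) and -0.05 ± 0.09 with TSPAN7 IgA. The first call was lost without BDNF IgA replicate 1 or 3 or any 1 untreated library (adjusted p from 0.065 to 0.15). Between the antibodies CLDN4 fell by 0.39 ± 0.09 (SE) with TSPAN7 IgA (adjusted p = 0.012, edgeR), which was lost without BDNF IgA replicate 1 or 3 or TSPAN7 IgA replicate 2 or 3 (adjusted p from 0.056 to 0.10).

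**Figure D3:**
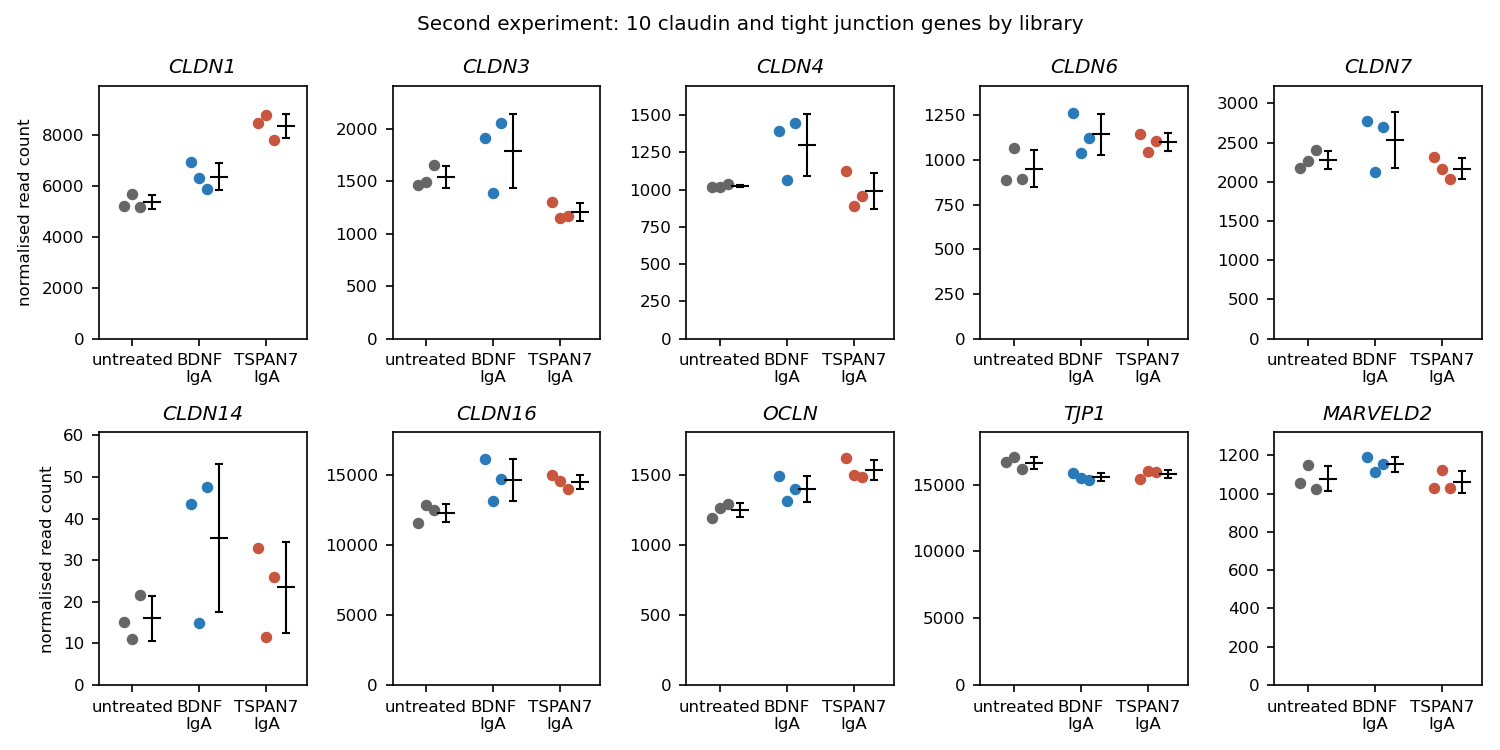
Normalised read count (linear axis from 0) of the 10 genes in each library of the second experiment, with mean and SD of the 3 libraries beside the points. CLDN1 is highest in the 3 TSPAN7 IgA libraries (7824 to 8780), and CLDN3 is lowest there (1151 to 1305).

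OCLN had 1193, 1262 and 1297 normalised counts in untreated cells, 1494, 1312 and 1401 with BDNF IgA, and 1619.8, 1502 and 1485 with TSPAN7 IgA. Both treated groups lay above the untreated one. The difference passed the test with TSPAN7 IgA (0.30 ± 0.06 SE, adjusted p = 0.0036, edgeR), also without any 1 library, and was 0.16 ± 0.06 with BDNF IgA (adjusted p = 0.11). CLDN6 had 888, 1069 and 891 in untreated cells, 1264, 1039.8 and 1122 with BDNF IgA, and 1146, 1043 and 1106 with TSPAN7 IgA. Both treated groups overlapped the untreated one through untreated replicate 2. Its difference was called with BDNF IgA (0.27 ± 0.08 SE, adjusted p = 0.041, edgeR) and lost without BDNF IgA replicate 1 or 3 or untreated replicate 1 or 3 (adjusted p from 0.079 to 0.24), or with only the 6 libraries compared (0.075). With TSPAN7 IgA the difference of 0.21 ± 0.08 (adjusted p = 0.11) was called with only the 6 libraries compared (0.040) or without untreated replicate 2 (0.032).

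The others were not called against untreated cells. CLDN7 had 2178 to 2399 normalised counts in untreated cells, 2125 to 2773 with BDNF IgA and 2035 to 2312 with TSPAN7 IgA. MARVELD2 had 1026 to 1149, 1115 to 1189 and 1026 to 1125 in the same order. These groups overlapped. CLDN7 differed by 0.15 ± 0.08 (SE) with BDNF IgA and -0.07 ± 0.08 with TSPAN7 IgA, and MARVELD2 by 0.10 ± 0.06 and -0.02 ± 0.06. TJP1 had 16149 to 17077 normalised counts in untreated cells, 15357 to 15896 with BDNF IgA and 15464 to 15994 with TSPAN7 IgA, and did not pass the test (adjusted p = 0.17 and 0.30, edgeR) although the treated groups lay below the untreated one. CLDN14 had reads in all 9 libraries. Its counts were 15, 11 and 24 in untreated cells, 43, 15 and 50 with BDNF IgA, and 33, 11 and 24 with TSPAN7 IgA. These groups overlapped, with log2 differences of 1.13 ± 0.43 (adjusted p = 0.11) and 0.54 ± 0.45 (adjusted p = 0.53, edgeR). With BDNF IgA CLDN14 was called with no filter on low counts (adjusted p = 0.024), with the replicate block (0.049) and without BDNF IgA replicate 2 (0.0086).

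Between the antibodies CLDN1, CLDN3 and CLDN4 passed the test, as given above. CLDN7 was -0.22 ± 0.08 (SE) on the log2 scale with TSPAN7 IgA relative to BDNF IgA (adjusted p = 0.075, edgeR), and was called with no filter on low counts (0.0033) and without BDNF IgA replicate 2 (9.1e-05). OCLN differed by 0.13 ± 0.06, MARVELD2 by -0.12 ± 0.06, CLDN6 by -0.06 ± 0.08, TJP1 by 0.02 ± 0.04 and CLDN14 by -0.58 ± 0.41, with adjusted p from 0.20 to 0.83 (edgeR). All of these overlapped between the antibodies.

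With BDNF IgA 4 of the 10 genes were called higher and none lower, where 4.49% and 3.18% of 18732 genes were called higher and lower. That count rests on single libraries. It was 8 without BDNF IgA replicate 2, 2 without BDNF IgA replicate 3, 1 without untreated replicate 3, and 0 without BDNF IgA replicate 1 or untreated replicate 1. With no filter on low counts it was 6, CLDN3 (adjusted p = 0.016) and CLDN14 being gained. With TSPAN7 IgA 3 were called higher and 1 lower, against 4.46% and 4.08% of all genes. Between TSPAN7 IgA and BDNF IgA 1 was higher and 2 were lower with TSPAN7 IgA, against 3.42% and 4.5% of all genes. These shares of all genes rest on single libraries too. Without 1 library the count of genes called higher ranged from 429 to 1505 with BDNF IgA (841 with all libraries) and from 196 to 1554 between the antibodies (641). The highest counts were those without BDNF IgA replicate 2. The median log2 difference of the 10 genes was 0.23, 0.09 and -0.09 in these comparisons, and that of all genes 0.00 in each.

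**Figure D4:**
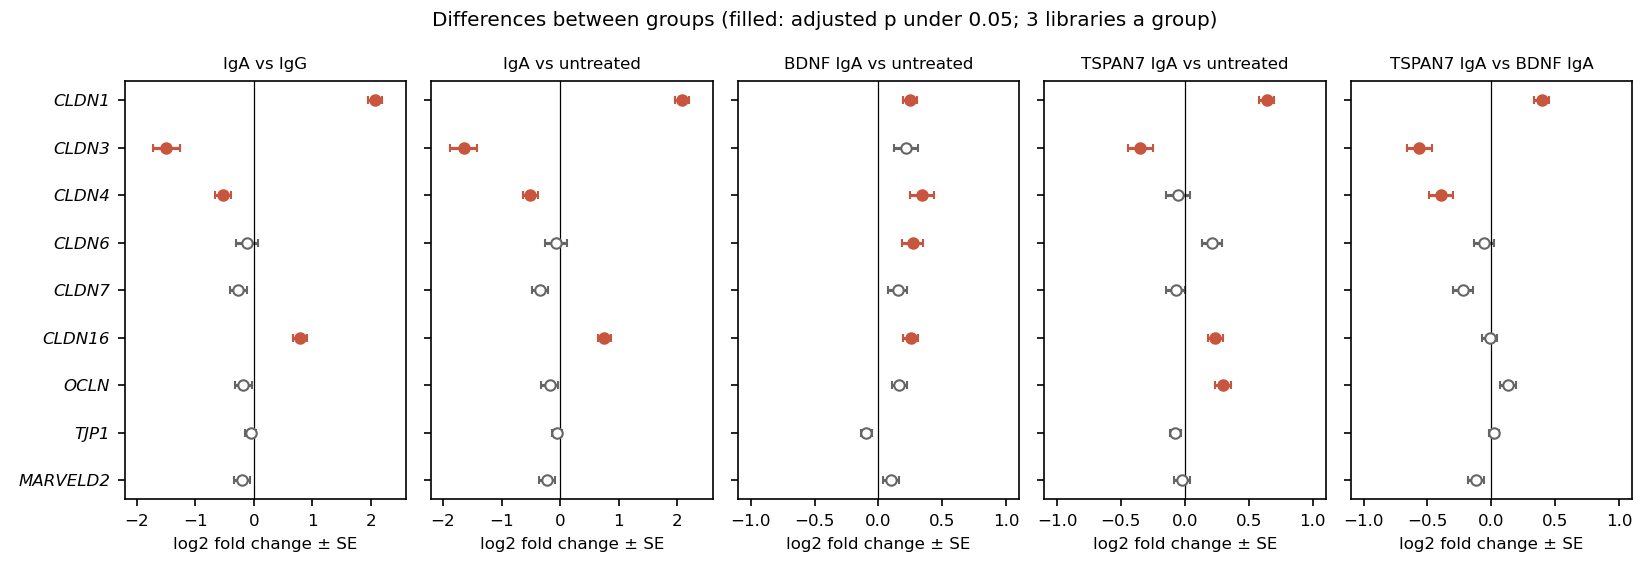
Log2 fold change with SE for 9 of the 10 genes in 5 comparisons (horizontal axes differ between the first 2 panels and the others; filled points passed an adjusted p of 0.05). CLDN14 is left out because its reads are absent in untreated cells of the first experiment. CLDN1 is to the right of 0 in every panel, from 0.25 to 2.08.

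The other genes of the junction were listed by function, not by how they moved. Of 58, 46 were tested. With IgA 4 were higher and 9 lower than with IgG, beside 12.6% and 11.6% of all genes, and 3 and 9 against untreated cells, beside 12.9% and 12.1%. Their median log2 difference was 0.02 and -0.00, and that of all genes -0.01 in both. None was called with IgG against untreated cells by edgeR or DESeq2. Of the 6 other claudins tested only CLDN22 was called with IgA, and its counts were low (0.00 to 7.90 normalised with IgA, 18.5 to 69.2 otherwise).

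Most of the calls were scaffold and polarity genes, 2 higher and 6 lower of 20 against IgG. AMOT, which encodes the polarity protein angiomotin, had 1302 to 1617 normalised counts with IgA and 2639 to 3658 with IgG, and fell by 1.05 ± 0.13 (SE, adjusted p = 0.00020, edgeR). PARD6B and PARD6A, of the PAR polarity complex, fell by 0.89 ± 0.17 and 0.84 ± 0.25. TJP3, which encodes ZO-3, had 629 to 658 with IgA and 930 to 1288 with IgG, a log2 difference of -0.82 ± 0.14. PARD3B rose by 0.55 ± 0.15 (adjusted p = 0.019, edgeR).

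Among the 8 other membrane proteins, F11R, which encodes the adhesion molecule JAM-A, was the only one called. It had 1859 to 2058 normalised counts with IgA, 1480.4 to 1540.5 with IgG and 1387 to 1562 in untreated cells, a log2 difference of 0.39 ± 0.10 (SE, adjusted p = 0.011, edgeR) from IgG. Among 12 signalling genes and claudin partners, ARHGEF2, an exchange factor held at tight junctions, rose by 1.09 ± 0.17 (adjusted p = 0.00085, edgeR), with 4215 to 5655 normalised counts against 1967 to 2958. ST14, which encodes the protease matriptase, fell by 0.48 ± 0.14, and ARHGEF11 by 0.41 ± 0.11.

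In the second experiment 4 of the 46 were higher and none lower with BDNF IgA, beside 4.49% and 3.18% of all genes. With TSPAN7 IgA 4 were higher and 3 lower, beside 4.46% and 4.08%. AMOTL2, an angiomotin relative, rose with both (0.26 ± 0.04 and 0.20 ± 0.04 SE, adjusted p = 0.00035 and 0.0029, edgeR). CGN, which encodes cingulin, fell by 0.27 ± 0.06 with TSPAN7 IgA. Between the antibodies 1 was higher and 8 were lower with TSPAN7 IgA (3.42% and 4.5% of all genes), CLDN10 (-0.53 ± 0.09), TJP3 (-0.48 ± 0.08) and AMOT (-0.43 ± 0.07) among them.

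Over the 18 libraries, centred within each experiment, the genes whose log2 CPM was most like CLDN14 among 17548 were KLF11 (Pearson r = 0.968), NR1D1, ZBTB41, HSP90B1 and NT5E (0.962). CLDN14 was taken because it had the largest difference with IgA among members averaging at least 50 normalised counts in 1 group. It met that mean through IgA replicate 3, its highest library. The other groups of the first experiment had almost no CLDN14 reads. Their log2 CPM was set by the prior count, so r there mostly records IgA against the floor. For CLDN1, taken after values were seen, they were EPHA2 (r = 0.994), ERRFI1, PLK2, CXCL2 and CXCL3 (0.981). All these values are descriptions and share the contrast of the 3 IgA libraries with the rest. Within the second experiment alone r was 0.691 with KLF11 to 0.845 with NR1D1 for the 5 genes like CLDN14, and 0.852 with CXCL3 to 0.968 with ERRFI1 for those like CLDN1.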

How the data were processed

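Per the study's methods, the authors sequenced 75-base paired-end reads, trimmed them with cutadapt, mapped them with STAR to GRCh37, and used featureCounts on unique alignments with Gencode genes. The submitters' processing notes name hg19, cutadapt 1.8.1 and HTSeq 0.6.1, and the disagreement on the counter was not resolved. Use of strand was not given in the sources used here. The authors deposited raw counts with no normalization and tested them with DESeq2. The second table held 57820 rows, of which 2055 repeated another exactly and were removed.

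Each experiment was fitted with its 9 libraries in edgeR 4.0.16 (R 4.3.3, TMM, filterByExpr, quasi-likelihood, two-sided). P-values were adjusted by Benjamini-Hochberg over all genes tested, and calls needed an adjusted p under 0.05. Each SE was obtained from the log2 fold change and its F statistic. Correlations used log2 CPM with a prior count of 2. Library totals were 27920733 to 47381836. Reads are not independent molecules, so counting intervals and the floor of 3 counts cover counting error only. Scripts were tested on simulated data.

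The 10 genes and the lists were chosen with earlier results of these data known. All 10 are described in every comparison. From each other list up to 3 called genes with the largest and smallest log2 fold change, at least 50 normalised counts on average in 1 group, and no overlap were eligible to be named. CLDN22, KLF5, GRHL1 and SNAI1 were named after their values were seen. TJP3 was eligible against untreated cells and between the antibodies but not against IgG, where its values are given as well. A gene counted in these lists is not reported by name here. The motifs were chosen in the same way, and all motifs searched are reported. Alternatives were DESeq2 1.42.0, other scalings, no filter, leaving out mitochondrial and ribosomal RNA genes, a replicate block, fitting 6 libraries, and leaving out each library.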

Additional observations from a re-analysis of the deposited data

How the results depend on the processing

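Of 767 single-gene log2 fold changes recomputed under the alternatives, for the 10 genes and 6 comparisons, 690 kept their direction and their side of the threshold, 31 lost a call, 15 gained one and 31 changed sign. In both IgA comparisons CLDN1, CLDN14, CLDN16 and CLDN3 remained called under every alternative run. Where not stated otherwise, the cause of a change was not tested. Scaling by library size alone moved the median log2 difference of all genes from -0.01 to -0.25 against IgG and to -0.22 against untreated cells, and differences of single genes there are relative to that shift. It gave 1 other tight junction gene higher and 15 lower with IgA than with IgG, and 1 and 14 against untreated cells. With that scaling CLDN7 was called lower in both (adjusted p = 0.037 and 0.022, edgeR). Against untreated cells CLDN7 was also called with no filter on low counts (adjusted p = 0.031) and without IgA replicate 1 (0.033). Without 1 library the counts of all genes called higher and lower ranged from 1339 to 2520 and from 1227 to 2766 with IgA against IgG (lowest without IgG replicate 3), from 1365 to 2512 and from 1236 to 2717 against untreated cells (lowest without untreated replicate 3), and from 429 to 689 and from 328 to 682 with TSPAN7 IgA (lowest without TSPAN7 IgA replicate 2). Those lower ranged from 293 to 1293 with BDNF IgA and from 286 to 1722 between the antibodies, highest without BDNF IgA replicate 2. With IgG against untreated cells 2 genes were lower with no filter on low counts.

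With only the 6 libraries compared, 2 other tight junction genes were higher with BDNF IgA, and 6 were lower with TSPAN7 IgA. With no filter on low counts 6 were lower with TSPAN7 IgA. With DESeq2, 0 of the 10 genes were lower with TSPAN7 IgA. Between the antibodies 0 other genes were higher by library size alone, with no filter or with 6 libraries, and 4 were lower with 6 libraries.

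Leaving out each library in turn, the 10 genes called lower numbered 1 to 2 with IgA against IgG, 1 to 3 against untreated cells, 0 to 1 with TSPAN7 IgA and 1 to 3 between the antibodies, and those called higher with BDNF IgA 0 to 8. Other tight junction genes called higher numbered 1 to 5 with IgA against IgG, 2 to 5 against untreated cells, 1 to 12 with BDNF IgA, 1 to 3 with TSPAN7 IgA and 0 to 1 between the antibodies. Those called lower numbered 4 to 11 with IgA against untreated cells, 0 to 1 with BDNF IgA, 1 to 2 with TSPAN7 IgA and 3 to 18 between the antibodies. The lowest and highest followed single libraries, 18 and 12 being those without BDNF IgA replicate 2.

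The sign changes were in differences near 0 that were not called. Without 1 library CLDN6 ranged from -0.28 to 0.073 with IgA against IgG, from -0.23 to 0.12 against untreated cells and from -0.12 to 0.023 between the antibodies. CLDN16 ranged from -0.086 to 0.061 between the antibodies. With TSPAN7 IgA, CLDN4 ranged from -0.15 to 0.021 and MARVELD2 from -0.066 to 0.028. With IgG against untreated cells CLDN1 ranged from -0.073 to 0.089, CLDN3 from -0.37 to 0.031, CLDN4 from -0.077 to 0.11, CLDN6 from -0.041 to 0.20, CLDN7 from -0.21 to 0.022, CLDN16 from -0.16 to 0.044, OCLN from -0.11 to 0.080 and TJP1 from -0.048 to 0.034. There OCLN was -4.3e-05 with DESeq2 and -8.9e-05 with DESeq2's size factors, and by library size alone TJP1 was 0.023 and MARVELD2 0.0023.

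After the mean of its group was subtracted from each gene, same-numbered libraries correlated from -0.07 to 0.25. The highest value was that of replicate 3 of IgG and untreated cells. Libraries of different number were not compared, so these values do not decide whether the numbers pair the samples. The main fit did not pair them. With the replicate block 5 other tight junction genes were lower with TSPAN7 IgA, and CLDN14 was called with BDNF IgA (adjusted p = 0.049, edgeR). The few reads of CLDN14 limit its values to counting intervals.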

Other observations

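Of 12 transcription factors known to act on epithelial junction genes, listed by function, 4 were higher and 4 lower with IgA than with IgG, beside 12.6% and 11.6% of all genes, and 5 and 4 against untreated cells, beside 12.9% and 12.1%. Among repressors of epithelial genes, SNAI2, which encodes Slug, had 1570, 1218 and 3357 normalised counts with IgA, 251, 215 and 238 with IgG, and 254, 205 and 209 in untreated cells. The highest value was that of IgA replicate 3. SNAI2 rose by 3.12 ± 0.30 (SE) on the log2 scale against IgG (adjusted p = 3.3e-05, edgeR). ZEB1 rose by 2.01 ± 0.24 and TWIST1 by 1.62 ± 0.30. Among factors that maintain epithelial genes, GRHL3 had 79.6, 113 and 41.1 normalised counts with IgA and 281, 343 and 345 with IgG, and fell by 2.02 ± 0.30. GRHL2 fell by 1.14 ± 0.16, ELF3 by 0.83 ± 0.15 and GRHL1 by 0.54 ± 0.15, whereas KLF5 rose by 0.77 ± 0.11. SNAI1 was called only against untreated cells (0.56 ± 0.18), and its difference between the 2 comparisons was not tested. With TSPAN7 IgA, SNAI2 fell by 0.34 ± 0.07 and GRHL2 by 0.22 ± 0.06. With BDNF IgA none of the 12 was called by edgeR.

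Of 18 adherens junction and desmosome genes, 4 were higher and 1 lower with IgA than with IgG, beside 12.6% and 11.6% of all genes. DSG2, a desmosomal cadherin, had 7379, 8164 and 10145 normalised counts with IgA and 5769 to 6388 with IgG, and rose by 0.49 ± 0.12 (SE, adjusted p = 0.0097, edgeR). VCL, which encodes the actin linker vinculin, rose by 0.48 ± 0.11 and DSP, which encodes desmoplakin, by 0.38 ± 0.11. NECTIN3, an adhesion molecule of adherens junctions, fell by 0.36 ± 0.10. Against untreated cells 4 of the 18 were higher and 2 lower with IgA, beside 12.9% and 12.1% of all genes. DSC2, another desmosomal cadherin, fell by 0.45 ± 0.13 in that comparison (adjusted p = 0.024, edgeR). CDH1, which encodes E-cadherin, fell by 0.35 ± 0.07 with TSPAN7 IgA relative to BDNF IgA (adjusted p = 0.0033, edgeR).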
